A study of Mus musculus with 2 samples.

Results

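The 8 genes followed here encode secreted or cell-surface factors of vessel growth, matrix and epidermal growth factor (EGF) signalling, measured in single immune cells from mouse tumours. Out of 47730 listed features, they were the rows whose gene symbol is Vegfa, Hbegf, Ereg, Thbs1, Spp1, Fn1, Plau or Plaur. The rule itself uses no measured value, but the 8 symbols were chosen with earlier results of these data known. Tumours of C57BL6\J mice were dissociated, live CD45+ cells (CD45 marks immune cells) were sorted, and RNA was counted at its 3′ end with the 10x Chromium droplet method. The E2 group had an ovariectomy and E2, and the placebo group had an ovariectomy and placebo, so both lacked ovaries. Each group held 1 library; tumour type, dose, duration and number of mice were not stated. With 1 library per group the spread between mice could not be measured, no test was possible, and every interval below covers counting error only.

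Vegfa encodes the growth factor that drives endothelial cells to sprout, and its transcription is known to rise when oxygen is low. Hbegf and Ereg encode membrane-anchored EGF-family ligands that are released by sheddases and act on the EGF receptor family. Thbs1 (thrombospondin-1), Spp1 (osteopontin) and Fn1 (fibronectin) encode matrix proteins; thrombospondin-1 is best known as an inhibitor of vessel growth, while osteopontin and fibronectin bind integrins and carry cell adhesion. Plau encodes urokinase, the protease that turns plasminogen into plasmin, and Plaur encodes its receptor at the cell surface. Tumour-infiltrating monocytes, macrophages and neutrophils are known sources of several of these factors.

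The 3 matrix proteins share a short sequence that the selection did not use, the arginine-glycine-aspartate triplet through which many integrins recognise a ligand. It was found in the longest GENCODE coding sequence of Thbs1, Spp1 and Fn1 and in none of the other 5 genes, and 7.20% of 21815 genes with a coding sequence hold it. The stretches below show 30 coding bases each, 5′ to 3′, with the codons of the triplet in capitals.
Thbs1, residue 927, chr2:118122882-118122890 (plus): gatggtgatggcCGAGGTGACgcctgcaaa
Spp1, residue 145, chr5:104439481-104439489 (plus): gtccccaacggcCGAGGTGATagcttggct
Fn1, residue 1614, chr1:71606746-71606754 (minus): gctgtcactggcCGTGGGGACagtccagca
The coordinates are those of the 9 capital bases, and residues are counted from the first codon. A further triplet in Fn1 begins at residue 2181.

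Promoter windows from RefSeq (GRCm38.p6) are shown for 3 members, Vegfa, Spp1 and Plaur, which are among those that differed between the libraries in some cell types. Ereg, Thbs1, Fn1 and Plau had no window matched by symbol, and Hbegf was left out before matching and is not reported here. Each line gives the 250 bases before the transcription start, 5′ to 3′ on the gene's strand, with motif matches in capitals.
Vegfa, chr17:46032378-46032627 (minus): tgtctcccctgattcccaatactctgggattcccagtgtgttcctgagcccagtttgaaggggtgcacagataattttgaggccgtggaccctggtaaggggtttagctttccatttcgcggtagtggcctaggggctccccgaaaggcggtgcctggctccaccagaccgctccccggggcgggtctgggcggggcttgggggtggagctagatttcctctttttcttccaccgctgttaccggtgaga
Spp1, chr5:104434861-104435110 (plus): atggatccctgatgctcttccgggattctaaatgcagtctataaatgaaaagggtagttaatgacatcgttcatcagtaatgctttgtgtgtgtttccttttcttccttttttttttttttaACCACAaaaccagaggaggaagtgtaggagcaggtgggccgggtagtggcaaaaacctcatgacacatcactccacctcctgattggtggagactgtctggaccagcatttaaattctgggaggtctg
Plaur, chr7:24462233-24462482 (plus): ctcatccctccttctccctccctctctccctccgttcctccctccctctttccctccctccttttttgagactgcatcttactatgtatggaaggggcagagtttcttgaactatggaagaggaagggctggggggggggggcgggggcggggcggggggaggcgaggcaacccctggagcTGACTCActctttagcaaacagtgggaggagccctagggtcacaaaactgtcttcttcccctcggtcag
The motifs below were searched on both strands. The AP-1 motif TGANTCA occurred once in the Plaur window and in 6.75% of 32851 promoter windows of this length. The RUNX motif TGTGGT occurred once in the Spp1 window, on the opposite strand, and in 14.05% of all windows. The hypoxia cores ACGTG and GCGTG and the estrogen-element part AGGTCA were in none of the 3 windows shown, against 16.6%, 28.2% and 14.02% of all windows. The table holds 2 windows each for Vegfa and Spp1, and the other window of each was not searched on its own. These matches describe letters in a window and say nothing of binding.

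The genes lie on 7 chromosomes of GRCm38, the assembly that mm10 names, in the GENCODE M21 annotation (1-based). Vegfa lies at chr17:46016993-46032369 on the minus strand and Hbegf at chr18:36504927-36515805 on the minus strand. Ereg at chr5:91074622-91093646 and Spp1 at chr5:104435118-104441050 share a chromosome and the plus strand. Thbs1 lies at chr2:118111876-118127133 (plus), Fn1 at chr1:71585520-71653200 (minus), Plau at chr14:20836660-20843385 (plus) and Plaur at chr7:24462484-24475968 (plus). All 8 are annotated as protein-coding. The annotation overlaps Ereg, Thbs1 and Fn1 with 1 opposite-strand gene each and Spp1 with Gm42793 on its own strand; how the counting treated these overlaps was not stated.

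The E2 library held 52628133 UMIs in 5791 barcodes and the placebo library 24545595 UMIs in 3505 barcodes, where a UMI is 1 counted RNA molecule. After filtering, 5499 E2 and 3393 placebo cells remained, with medians of 7888 and 5090 UMIs, and 95 barcode sequences occurred in both libraries. Each cell was given a class from marker genes that include none of the 8 members, and a class is called X-like for that reason. Monocyte/macrophage-like cells formed the largest class, with 2300 E2 and 963 placebo cells, and all 14 of their markers were detected in both libraries, with a summed level of 22531 CPM in E2 and 17623 CPM in placebo (CPM, UMIs of a gene per 1000000 UMIs of the class in that library). Neutrophil-like cells numbered 541 in E2 and 258 in placebo, and their 11 markers summed to 173624 CPM in E2 and 109821 CPM in placebo. Platelet markers, which matter here because platelets carry thrombospondin-1, summed to 3.27 CPM in E2 and 3.86 CPM in placebo monocyte/macrophage-like cells and to 3.35 and 3.30 CPM in neutrophil-like cells, with Gp9 and Gp1bb at 0 in all of these but the E2 monocyte/macrophage-like cells. Although the sort was for CD45+ cells, 123 E2 and 29 placebo barcodes carried fibroblast markers.

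Monocyte/macrophage-like cells held the largest part of most members' UMIs, and each member had its own order of cell types. Monocyte/macrophage-like cells held 82.4% of Thbs1 UMIs in E2 and 88.7% in placebo, 88.8% and 92.7% of Fn1, 81.5% and 65.8% of Spp1, and 64.0% and 63.7% of Plaur. Their part of Plau was 43.9% in E2 and 57.8% in placebo, and of Hbegf 46.8% and 65.7%. Thbs1 stood highest in neutrophil-like cells, at 4292 CPM in E2 and 2114 CPM in placebo, ahead of monocyte/macrophage-like cells at 1662 and 1227 CPM, and the intervals of these neighbours did not overlap in either library. Plaur was also highest in neutrophil-like cells in both libraries, and plasmacytoid dendritic (pDC)-like cells were second in E2 at 938 CPM. Fn1 stood highest in monocyte/macrophage-like cells, and next to it stood the few fibroblast-like barcodes at 1426 CPM in E2 and 1408 CPM in placebo.

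Mast cell-like cells led the order for 2 members. Plau reached 190 CPM in E2 and 183 CPM in placebo mast cell-like cells, from 341 and 84 UMIs, while the next class with 30 or more cells in both libraries reached 17.1 CPM in E2 (conventional dendritic, cDC2-like) and 24.7 CPM in placebo (neutrophil-like). Vegfa was at 366 CPM in E2 and 279 CPM in placebo mast cell-like cells, and its interval overlapped that of neutrophil-like cells, at 351 CPM in E2 and 214 CPM in placebo, in both libraries. Hbegf was led by basophil-like cells, at 90.5 CPM in E2 from 11 UMIs in 2 of 30 cells, and at 187 CPM in placebo from 82 UMIs in 15 of 108 cells. The basophil-like interval overlapped that of the next group in both libraries. These were fibroblast-like barcodes in E2 (77.2 CPM) and barcodes that reached no class in placebo (121 CPM). T-like cells were taken as the level against which low shares are read, although activated T cells are known to make osteopontin (Spp1). They had a UMI of any given member in 0% to 1.63% of cells after each cell was thinned to 2000 UMIs, and shares in that range are not read as expression.

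**Figure D1:**
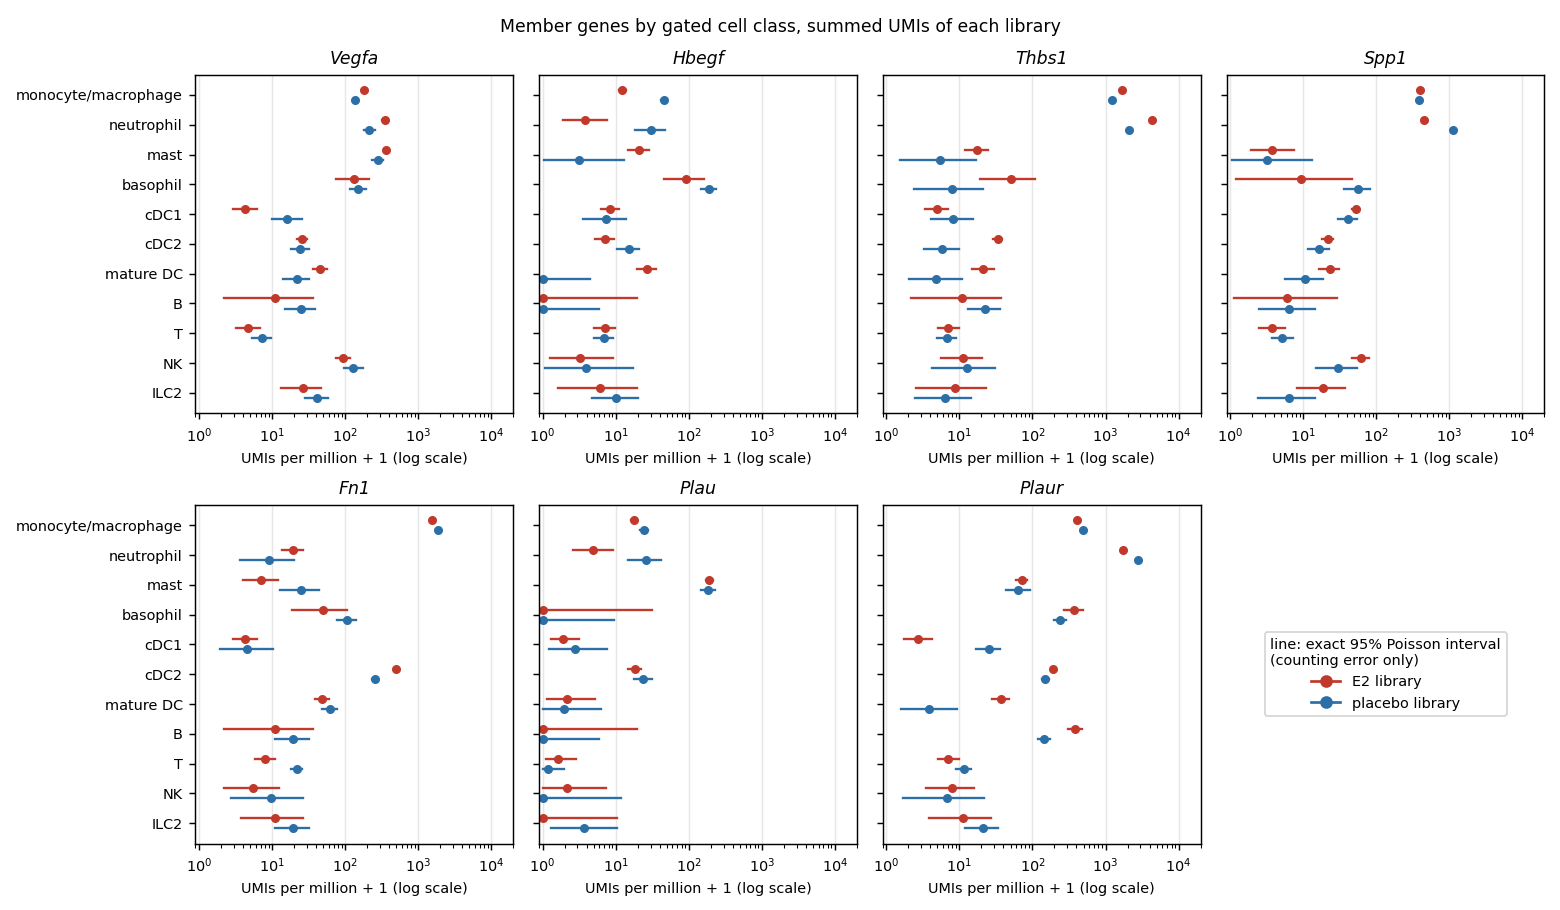
Level of 7 members in the 11 larger classes, as CPM plus 1 on a log axis, with E2 above placebo in each row and lines for exact 95% Poisson intervals. Thbs1 and Plaur reach their highest levels in neutrophil-like cells, Plau in mast cell-like cells, and Fn1 in monocyte/macrophage-like cells.

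In all monocyte/macrophage-like cells, Hbegf was lower in E2 than in placebo by more than any other member, and Vegfa and Thbs1 were modestly higher. Of the 8 members, 7 passed the minimum of 20 UMIs over both libraries. One of the 7 was lower by at least 1.5-fold and 0 were higher, on the scale log2((CPM E2 + 10)/(CPM placebo + 10)), which understates ratios of low genes. Of all 13060 genes in this class, 1.2% were lower and 0.75% higher by that much. The median log2 ratio was -0.25 over the 7 members and -0.03 over all genes.

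Among the ligands, Vegfa was at 181 CPM in E2 and 137 CPM in placebo, a ratio of 1.32 (95% interval 1.24 to 1.41), from 4215 and 1245 UMIs. Thinned to equal depth, 22.6% of E2 cells and 12.7% of placebo cells had a Vegfa UMI. Hbegf was at 11.3 CPM in E2, against 45.2 CPM in placebo, 3.99-fold lower (3.41 to 4.68), and its thinned share of cells was 1.74% in E2 and 5.23% in placebo. In T-like cells the Hbegf share was 1.18% in E2 and 1.44% in placebo, so the E2 share lies near that level. Ereg was nearly absent, with 2 UMIs in 1 E2 cell and 4 UMIs in 2 placebo cells, and no UMI in any other class, so it was given no ratio.

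Among the matrix genes, Thbs1 was at 1662 CPM in E2 and 1227 CPM in placebo, a ratio of 1.35 (1.33 to 1.38), and was found in 66.7% of E2 and 46.2% of placebo cells after thinning. Spp1 was at 391.6 CPM in E2 and 388.7 CPM in placebo, a ratio of 1.007 (0.969 to 1.05), but 5 cells held 38.4% of its UMIs in E2 and 47.4% in placebo. Fn1 was at 1574 CPM in E2 and 1890 CPM in placebo, a ratio of 0.833. In the plasminogen pair, Plau was at 16.7 CPM in E2 and 23.6 CPM in placebo, and Plaur at 412 CPM in E2 and 492 CPM in placebo, with ratios of 0.706 and 0.838. The intervals of Fn1, Plau and Plaur all lay below 1 and those of Vegfa and Thbs1 above 1, with none of these 5 past 1.5-fold.

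These class values mix states that the libraries held in unequal shares. The state marked by Arg1 and Mmp12 made up 4.65% of E2 and 16.6% of placebo monocyte/macrophage-like cells, and the Ly6c2-high monocyte-like state 19.6% of E2 and 11.01% of placebo cells. The Arg1 Mmp12 state held 31.9% of the class's Spp1 UMIs in E2 and 87.7% in placebo. For Vegfa it held 8.04% in E2 and 51.0% in placebo, for Hbegf 19.0% and 57.3%, and for Thbs1 2.93% and 33.7%. In E2, the largest single share lay in the state marked by Apoe and Prtn3 for Spp1 (40.4%) and in Ly6c2-high cells for Thbs1 (40.9%).

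**Figure D2:**
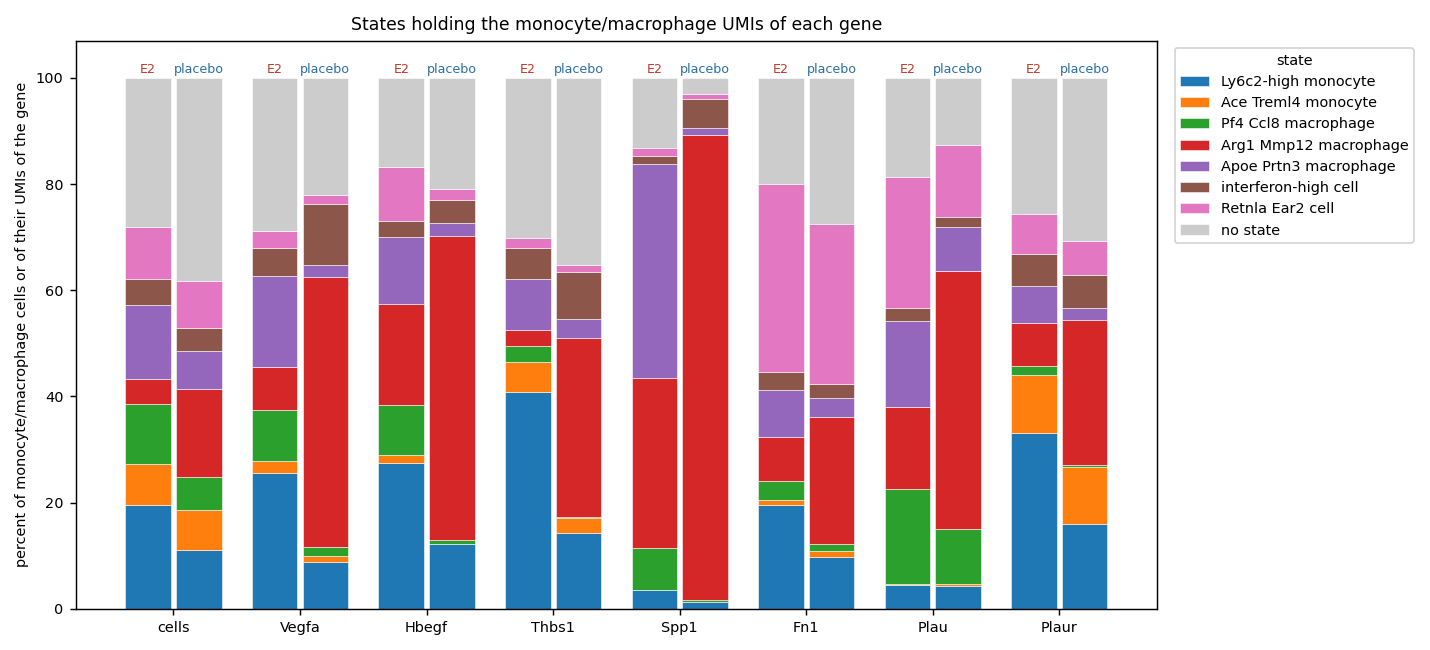
Percent of monocyte/macrophage-like cells (first pair of bars) and of their UMIs of each gene that lay in each state, with the E2 bar left of the placebo bar. The Arg1 Mmp12 state holds 31.9% of Spp1 UMIs in E2 and 87.7% in placebo, while its share of cells is 4.65% in E2 and 16.6% in placebo.

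With the 7 states and the unassigned cells weighted alike in both libraries, Vegfa was at 191 CPM in E2 and 113 CPM in placebo, and Thbs1 at 1703 CPM in E2 and 1113 CPM in placebo. Their log2 ratios became 0.71 and 0.61, past 1.5-fold. Spp1 was at 463 CPM in E2 and 238 CPM in placebo under the same weights, a log2 ratio of 0.93, against 0.01 as gated. Hbegf kept a ratio past 1.5-fold, at 12.2 CPM in E2 and 35.5 CPM in placebo. Without the Arg1 Mmp12 state, an alternative chosen after seeing the data, Spp1 was at 283 CPM in E2 and 59.5 CPM in placebo and Vegfa at 177 and 83.6 CPM. Spp1 depended on the weighting in sign as well as size, since thinned cells gave -0.60 and the mean over single cells -0.58.

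**Figure D3:**
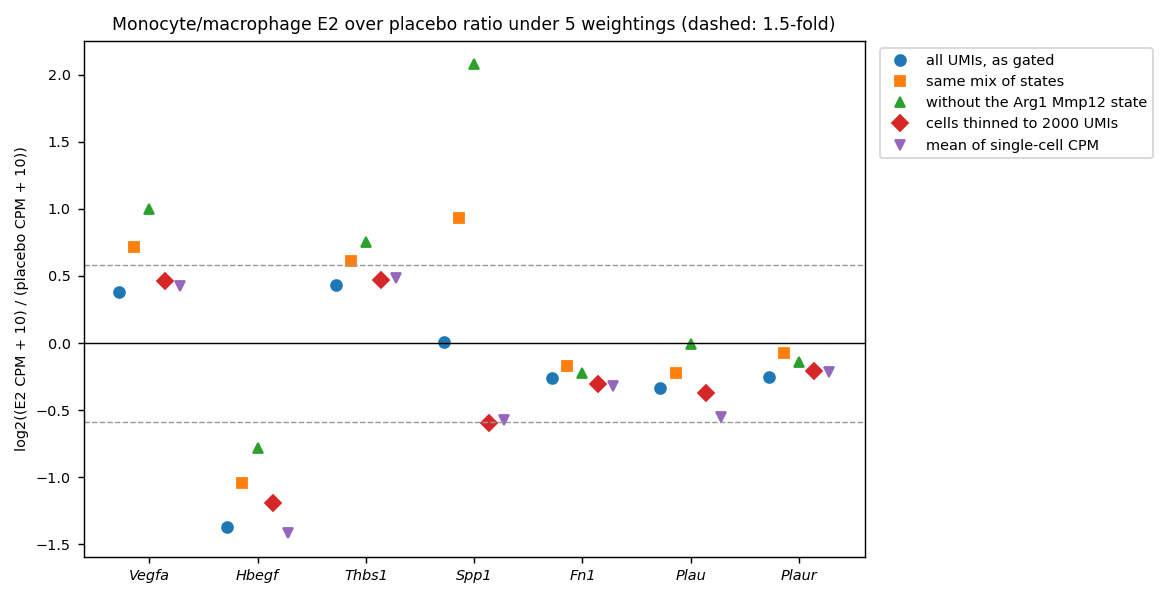
log2 ratio of E2 over placebo in monocyte/macrophage-like cells for 7 members under 5 ways of weighting cells, with dashed lines at 1.5-fold. Hbegf lies below the lower line under every weighting shown, from -1.42 to -0.78, and Spp1 ranges from -0.60 to 2.08.

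Within states, Vegfa, Thbs1 and Spp1 accounted for all 12 pairs of member and state that were higher in E2 by at least 1.5-fold, and 7 pairs were lower, of 45 pairs with at least 20 UMIs. The share of all genes higher by that much was 1.86% in Ly6c2-high, 3.7% in Ace Treml4, 8.17% in Pf4 Ccl8, 3.04% in Arg1 Mmp12, 4.25% in Apoe Prtn3, 10.6% in interferon-high and 3.01% in Retnla Ear2 cells. The share lower was 2.7%, 6.65%, 9.95%, 5.72%, 5.95%, 10.8% and 3.63% in the same order. In the cells that reached no state, 3 members were higher (1.32% of all genes) and 1 lower (1.57%), with Vegfa at 216 CPM in E2 and 88.7 CPM in placebo and Hbegf at 7.83 and 27.7 CPM. The states were not alike in their own markers. In Ly6c2-high cells Chil3 was at 3790 CPM in E2 and 682 CPM in placebo, in Arg1 Mmp12 cells Arg1 at 797 and 2656 CPM, and in Retnla Ear2 cells Retnla at 6265 and 24895 CPM. The part of these differences in the members' values was not tested.

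Vegfa was higher in E2 in 5 of 7 states. In Ly6c2-high cells it was at 235 CPM in E2 and 100.6 CPM in placebo, a ratio of 2.33 (1.91 to 2.87). In Apoe Prtn3 cells it was at 225 CPM in E2 and 46.2 CPM in placebo, a ratio of 4.87 (3.34 to 7.38), with thinned shares of 27.0% and 7.58%. Pf4 Ccl8 cells had 179 CPM in E2 and 56.3 CPM in placebo, but all 21 placebo UMIs lay in 1 cell. Ace Treml4 cells (74.1 and 23.9 CPM) and Retnla Ear2 cells (35.9 and 17.4 CPM) were also higher in E2. The Arg1 Mmp12 state did not share this direction, with 247 CPM in E2 and 357 CPM in placebo and thinned shares of 31.4% and 34.6%. Interferon-high cells were lower in E2, at 193 CPM against 363 CPM in placebo, where 5 of 42 cells held 73.4% of the UMIs, and their thinned shares went the other way, 24.5% in E2 and 19.5% in placebo.

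By at least 1.5-fold on the scale with 10 CPM added, Thbs1 was higher in E2 in 4 states and lower in 1. Retnla Ear2 cells, outside that count, had a plain ratio of 1.53 (1.28 to 1.83). Ly6c2-high cells, the state richest in Thbs1 in E2, were at 3451 CPM in E2 and 1462 CPM in placebo, a ratio of 2.36 (2.24 to 2.49), and 95.3% of E2 and 71.7% of placebo cells had a UMI after thinning. Ace Treml4 cells were at 1585 CPM in E2 and 554 CPM in placebo, and Apoe Prtn3 cells at 1143 and 653 CPM. Pf4 Ccl8 cells were at 512 CPM in E2 and 45.6 CPM in placebo, a ratio of 11.2 (6.98 to 19.3) that rests on 17 placebo UMIs in 4 cells. Arg1 Mmp12 cells went the other way, at 823 CPM in E2 and 2110 CPM in placebo, 2.56-fold lower (2.40 to 2.74). There the thinned shares were 37.3% in E2 and 37.9% in placebo, and 5 cells held 57.1% of E2 and 36.3% of placebo UMIs. With clusters in place of gates, chosen after seeing the data, the log2 ratio in that state was -0.40 and no longer past 1.5-fold, against -1.35 as gated.

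Spp1 showed the widest range of ratios. Apoe Prtn3 cells were at 1132 CPM in E2 and 69.3 CPM in placebo, a ratio of 16.3 (12.1 to 22.7). A single E2 cell held 1611 of the 3675 UMIs and 5 cells held 71.6%, and the thinned shares were 27.0% of E2 and 10.6% of placebo cells. Without the 1% of cells with most Spp1 UMIs in each library, chosen after seeing the data, the log2 ratio was 2.47, against 3.85 with all cells. Pf4 Ccl8 cells were at 326 CPM in E2 and 29.5 CPM in placebo, with thinned shares of 22.3% and 4.35%, and Ly6c2-high cells at 68.4 and 39.7 CPM. Arg1 Mmp12 cells had the highest level in both libraries, at 2110 CPM in E2 and 1738 CPM in placebo, within 1.5-fold. Interferon-high cells were at 113 CPM in E2, against 492 CPM in placebo, where 5 cells held 97.4% of the UMIs.

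Hbegf was lower in E2 by at least 1.5-fold, on the scale with 10 CPM added, in 3 of the 6 states with at least 20 UMIs. Without that addition it was also 1.62-fold lower in Apoe Prtn3 cells, where the interval of the ratio ran from 0.297 to 1.40. Its plain ratio was above 1 in Pf4 Ccl8 cells (1.39, from 25 and 3 UMIs) and Retnla Ear2 cells (1.06, from 27 and 8). Both of those intervals also span 1. Arg1 Mmp12 cells, the richest state, were at 36.4 CPM in E2 and 132 CPM in placebo, 3.63-fold lower (2.67 to 5.03), with thinned shares of 4.90% and 14.4%. Ly6c2-high cells were at 15.7 CPM in E2 and 46.2 CPM in placebo, with at least 84.7% of each library's UMIs in 5 cells, and interferon-high cells at 6.95 and 45.7 CPM from 8 and 18 UMIs. The 4 placebo UMIs of Ereg all lay in the Arg1 Mmp12 state. Fn1 and Plaur stayed within 1.5-fold in all 7 states although their levels differed widely between states. Fn1 ran from 253 CPM in E2 and 287 CPM in placebo Ace Treml4 cells to 3548 and 4479 CPM in Retnla Ear2 cells. Plaur ran from 72.0 CPM in E2 and 61.7 CPM in placebo Pf4 Ccl8 cells to 760 and 819 CPM in Ace Treml4 cells. Plau was lower in E2 in Pf4 Ccl8 cells, at 30.8 CPM against 59.0 CPM in placebo from 69 and 22 UMIs. In the other 4 states measured it was within 1.5-fold on the scale with 10 CPM added. Without that addition Plau was 2.24-fold lower in Ly6c2-high cells (17 and 9 UMIs) and 1.53-fold lower in Apoe Prtn3 cells. Both intervals span 1.

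**Figure D4:**
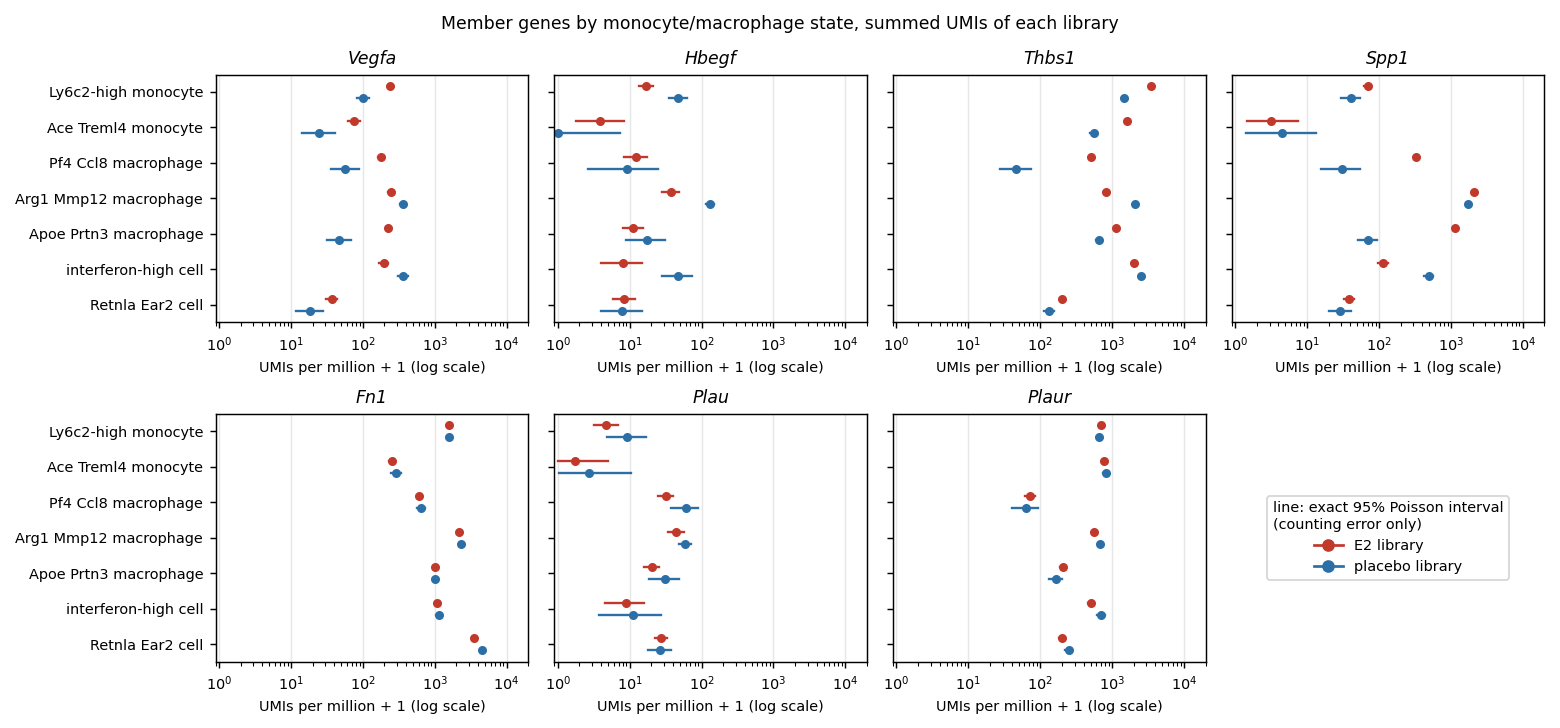
Level of 7 members in the 7 monocyte/macrophage-like states, as CPM plus 1 on a log axis, with E2 above placebo in each row and lines for exact 95% Poisson intervals. Vegfa and Thbs1 lie to the right in E2 in Ly6c2-high, Ace Treml4, Pf4 Ccl8, Apoe Prtn3 and Retnla Ear2 cells. Both lie to the left in Arg1 Mmp12 and interferon-high cells, while Fn1 and Plaur nearly coincide in most states.

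Neutrophil-like cells, with a median of 3090 UMIs in E2 and 2366.5 in placebo, had more Thbs1 and Vegfa and less Plaur in E2. Thbs1 was at 4292 CPM in E2 and 2114 CPM in placebo, a ratio of 2.03 (1.91 to 2.16), and 75.7% of E2 and 40.6% of placebo cells had a UMI after thinning. Vegfa was at 351 CPM in E2 and 214 CPM in placebo, a ratio of 1.64 (1.356 to 1.996), with thinned shares of 30.7% and 16.7%. Plaur was at 1739 CPM in E2 and 2750 CPM in placebo, 1.58-fold lower (1.49 to 1.68). Its thinned shares were 67.1% of E2 and 75.6% of placebo cells. In all, 3 of 7 members were higher and 4 lower by at least 1.5-fold in this class, where 8.91% of 5805 genes were higher and 13.1% lower. The direction turned for Fn1 without doublet removal (log2 ratio -0.26, against 0.64) and for Plau in thinned cells (0.49, against -1.32). The members beyond those above were Fn1 (33 UMIs in E2 and 5 in placebo), Hbegf (5 and 18), Plau (7 and 15) and Spp1, which was at 449 CPM in E2 and 1138 CPM in placebo with 83.2% and 73.3% of UMIs in 5 cells.

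Clusters made without the members divided the neutrophil-like cells, and the main pair showed these directions for Thbs1, Vegfa and Plaur. In the cluster led by Retnlg, Ly6g and Mmp8 (341 E2 and 144 placebo cells), Thbs1 was at 5291 CPM in E2 and 3015 CPM in placebo and Plaur at 2136 and 3849 CPM. In the cluster whose leading genes include Scimp and Havcr2 (196 E2 and 112 placebo cells), Thbs1 was at 1710 CPM in E2 and 672 CPM in placebo, Vegfa at 428 and 198 CPM, and Plaur at 629 and 995 CPM. Vegfa in the Retnlg cluster was at 325 CPM in E2 and 225 CPM in placebo, within 1.5-fold. Retnlg itself was at 11226 CPM in E2 and 3434 CPM in placebo in the first cluster, so the libraries differed there in a defining marker too, and its part in the members' values was not tested.

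**Figure D5:**
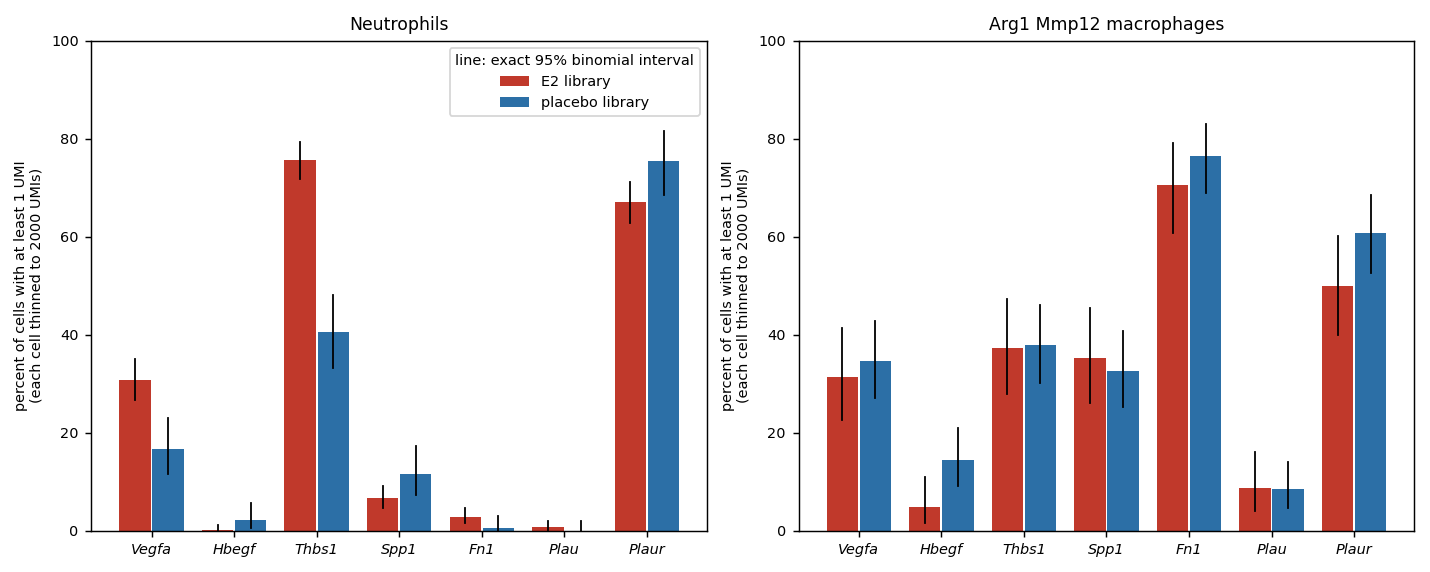
Percent of cells with at least 1 UMI of each member after every cell was thinned to 2000 UMIs, in neutrophil-like cells (left) and Arg1 Mmp12 macrophage-like cells (right), with E2 left of placebo and lines for exact 95% binomial intervals. In neutrophil-like cells Thbs1 stands at 75.7% in E2 and 40.6% in placebo, and in Arg1 Mmp12 cells at 37.3% and 37.9%.

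Over 10 classes beside monocyte/macrophage-like cells, neutrophil-like cells included, 15 of 48 member and class pairs were higher in E2 and 12 lower by at least 1.5-fold. The share of all genes higher by that much was 0.596% in T-like, 8.7% in NK-like, 5.78% in type 2 innate lymphoid (ILC2)-like, 6.3% in B-like, 7.39% in mast cell-like, 9.26% in basophil-like, 2.19% in cDC1-like, 1.19% in cDC2-like and 2.67% in mature dendritic (DC)-like cells. The share lower was 0.622%, 12.6%, 9.31%, 23.4%, 6.57%, 17.6%, 4.13%, 2.48% and 4.93% in the same order. Thbs1 was the member with most higher pairs, 4 of 6, and none lower. Outside neutrophil-like cells these pairs had few placebo UMIs. Mast cell-like cells had 29 Thbs1 UMIs in E2 and 2 in placebo, with a ratio interval of 0.941 to 32.2. Mature DC-like cells had 34 and 4, and cDC2-like cells 186 and 10. In cDC2-like cells Fn1 was at 500 CPM in E2 and 256 CPM in placebo with thinned shares of 17.7% and 15.6%, and Thbs1 at 32.5 and 4.83 CPM with thinned shares of 3.54% and 0.709%. Monocyte/macrophage markers, 14 of 14 detected, summed to 4295 CPM in E2 and 2197 CPM in placebo in the same cDC2-like cells, and their part in these values was not tested. B-like cells had 383 CPM of Plaur in E2 and 143 CPM in placebo, a ratio of 2.67 (1.97 to 3.62), in 48.1% and 20.7% of thinned cells. Mast cell-like cells stayed within 1.5-fold for their leading members, Plau and Vegfa. Plau had a ratio of 1.04 (0.818 to 1.34), and Vegfa was modestly higher in E2 at 1.31 (1.09 to 1.60).

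Several of the remaining ratios came from few cells. In mature DC-like cells Hbegf had 43 UMIs in E2 and 0 in placebo, at least 8.95-fold higher at a floor of 3 counts in placebo (the exact 95% interval of the ratio starts at 6.97), but 38 of the 43 lay in 1 cell. Plaur there had 60 UMIs in E2 and 3 in placebo, with 91.7% of the E2 UMIs in 5 cells. In cDC1-like cells Plaur had 9 UMIs in E2 and 27 in placebo, of which 22 lay in 1 cell. The T-like difference in Fn1, with 34 UMIs in E2 and 120 in placebo, held 64 of the 120 in 1 cell and turned direction without doublet removal (log2 ratio 0.65, against -0.85). Barcodes that reached no class held much Spp1, 442 UMIs in 157 E2 barcodes and 925 UMIs in 197 placebo barcodes, and their median depth was 857 and 615 UMIs.

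Other genes of the same pathways were read from lists that the members do not belong to. In monocyte/macrophage-like cells, 1.2% of all genes were lower and 0.75% higher by at least 1.5-fold. Among EGF-family ligands, receptors and sheddases, 8 of 16 were measured in that class. One was lower and 0 higher: Areg, the ligand amphiregulin, was at 17.2 CPM in E2 and 56.6 CPM in placebo, 3.30-fold lower. In the pooled class this was next to Hbegf in direction and size. In the cells that reached no state the 2 genes parted. There Areg was at 16.7 CPM in E2 and 11.3 CPM in placebo, from 94 and 35 UMIs, and Hbegf at 7.83 and 27.7 CPM. Areg in the named states is not given here. The sheddase regulator Rhbdf2 was at 33.0 CPM in E2 and 47.0 CPM in placebo and the tetraspanin Cd9 at 178 and 221 CPM, both within 1.5-fold. The sheddases Adam10 (87.9 CPM in E2, 110 CPM in placebo) and Adam17 (96.8 and 114 CPM) were within 1.5-fold. In the VEGF and angiopoietin family, 6 of 13 were measured and 2 were lower. Pgf, a ligand of the receptor Flt1, was at 4.18 CPM in E2 and 21.6 CPM in placebo, and Flt1 at 9.77 and 27.7 CPM, while the co-receptor Nrp1 was at 138 and 93.2 CPM, within 1.5-fold, as was Nrp2 (43.5 and 41.2 CPM). Vegfb was at 9.43 CPM in E2 and 5.95 CPM in placebo, a plain ratio of 1.58 (1.17 to 2.18) that is within 1.5-fold only on the scale with 10 CPM added.

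In the plasminogen system, 9 of 10 were measured and 1 was lower, the plasminogen activator inhibitor Serpinb2, at 0.775 CPM in E2 and 15.9 CPM in placebo. The plasminogen-binding pair Anxa2 (670 and 735 CPM) and S100a10 (839 and 812 CPM) and the clearance receptor Lrp1 (435 and 455 CPM) were within 1.5-fold. Among matrix proteins and their receptors, 18 of 21 were measured, 1 higher and 3 lower. For both lists, the share over all genes in monocyte/macrophage-like cells was 0.75% higher and 1.2% lower. Sparc was at 17.7 CPM in E2 and 5.18 CPM in placebo, and it is itself a marker of the fibroblast list, whose 6 genes summed to 37.2 CPM in E2 and 12.9 CPM in placebo in this class. Sdc4 was at 174 CPM in E2 and 326 CPM in placebo, Sdc1 at 18.3 and 33.1 CPM, and Cd44, a receptor of osteopontin and hyaluronan, at 394 and 608 CPM. Itga5, the fibronectin receptor chain, was at 42.6 CPM in E2 and 65.8 CPM in placebo, within 1.5-fold on the scale used.

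Of the genes listed for oxygen response, Hif1a, Epas1 and Vhl among them, some were lower in E2 by at least 1.5-fold. Most lay below 0 by less, in a class where Vegfa, known to respond to low oxygen, was at a ratio of 1.32. Of 18 listed genes 17 were measured in monocyte/macrophage-like cells. Of these, 6 were lower by at least 1.5-fold (1.2% of all genes) and 0 higher (0.75%). Hif1a was 1 of the 6, at 179 CPM in E2 and 284 CPM in placebo. The median log2 ratio was -0.43, against -0.03 over all genes. All 17 lay below 0 both with totals as the scale and with median-ratio scaling, where their median was -0.36. Hilpda was at 29.8 CPM in E2 and 85.2 CPM in placebo, Egln3 at 6.03 and 24.2 CPM, Slc2a1, the glucose transporter, at 47.4 and 92.8 CPM, Bnip3 at 33.8 and 67.0 CPM and Ero1l at 35.0 and 78.4 CPM. In the Arg1 Mmp12 state 9 of 16 were lower with a median of -0.67, where 5.72% of all genes were lower. In interferon-high cells 11 of 16 were lower with a median of -0.84, where 10.8% of all genes were lower. In Ly6c2-high cells 0 of 16 were lower (2.7% of all genes) and 1 was higher (1.86%), with a median of -0.05. In Apoe Prtn3 cells 1 of 15 was lower (5.95% of all genes) and 3 higher (4.25%), with a median of 0.04. Retnla Ear2 cells had 0 of 15 past 1.5-fold either way (median 0.30), where 3.63% of all genes were lower and 3.01% higher. In neutrophil-like cells 3 of 16 were lower and 3 higher (median 0.17), where 13.1% of all genes were lower and 8.91% higher. Counts for Ace Treml4, Pf4 Ccl8 and unassigned cells are not given here.

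The genes whose levels ran most like each member's were ranked by Pearson correlation of log2(CPM + 10) over 34 points, 17 cell groups in each library, among 10091 genes. The points share libraries and their depth, and 7 of the 17 groups are states of 1 class, so the values are descriptions. Thbs1 ran most like Sirpb1c (0.94), Prdx5 and C3, and Fn1 most like Lrp1 (0.93), Daglb and Clec4a2. Plau ran most like Mitf (0.94), which encodes a transcription factor prominent in mast cells, then Scamp1 and Fblim1. Clec4e (0.90) and Cyp4f18 were among the 3 genes most like Plaur, and Spp1 ran most like Clec5a (0.84), Alas1 and Tnfsf13b. Vegfa had its highest values with Rhob (0.73), Lilrb4a and Rab20, and Hbegf with Hk2 (0.72), which encodes a hexokinase, Serpinb2 and Lrp12.

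Within single monocyte/macrophage-like cells thinned to 2000 UMIs, cells with Vegfa also had Thbs1 more often than cells without it. Of 495 E2 cells with Vegfa 86.7% had Thbs1, against 60.9% of 1695 without, and of 114 placebo cells with Vegfa 73.7% had Thbs1, against 42.2% of 785 without. Spp1 was found in 19.8% of E2 cells with Vegfa and 11.2% of those without, and in 29.8% and 6.62% in placebo. Thbs1 was found in 60.6% of E2 cells with Spp1 and 67.6% of those without, and in 47.7% and 46.0% in placebo. Cells of 1 library are not replicates, and these shares carry no test.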

How the data were processed

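The deposited values are raw UMI counts per gene and barcode, which the authors made with Cell Ranger 3.1.0 on mm10, per the submitters' processing notes. Barcodes under 200 genes were removed (26 in E2, 15 in placebo). A limit of 10% mitochondrial UMIs removed none, since 37 mitochondrial features held 0 UMIs. Barcodes with the highest Scrublet scores (scanpy 1.11.5) were removed at 0.8% per 1000 barcodes, 266 in E2 and 97 in placebo, because the automatic threshold marked 1.49% and 0.0860%. A cell took the class with the highest mean scaled marker level, if at least 0.15, and a monocyte/macrophage-like cell took the state with the highest z-score, if at least 1. Leiden clusters (leidenalg 0.10.2, resolution 1) were made on 2000 variable genes without the members. UMIs were summed per class and library. Intervals are exact (Poisson, Clopper-Pearson, conditional binomial, 95%) and cover counting error only. The interval code was tested on simulated data. A ratio needed 30 cells in each library and 20 UMIs over both.

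The members, markers and pathway lists were chosen with earlier results of these data known, and the scoring thresholds were set after the counts were seen. Named list genes had at least 50 UMIs and were the 5 with the largest log2 ratio, in size, of each list. The genes most like a member were the 3 with the highest correlation among genes with at least 200 UMIs, leaving out models named Gm or Rik; some genes these rules pick are not reported here. Alternatives covered the pseudocount, scaling, thinning, weighting of cells and states, doublets, the gates and clusters. Depth differed between libraries, and doublets, free RNA and mice per library could not be checked further. Python 3.11.15, numpy 2.4.6, scipy 1.17.1 and matplotlib 3.10.9 were used.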

Additional observations from a re-analysis of the deposited data

Results flagged for a closer look

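For 6 members the log2 ratio of E2 over placebo took opposite signs, past 1.5-fold, in 2 cell groups, and none of these differences was tested because each group held 1 library. Vegfa was at 2.06 in Apoe Prtn3 macrophage-like cells and at -0.92 in cDC1-like cells, where 14 of 17 placebo UMIs lay in 1 cell. Hbegf was at 1.83 in mature DC-like cells and at -1.72 in interferon-high cells. Thbs1 was at 3.23 in Pf4 Ccl8 macrophage-like cells and at -1.35 in Arg1 Mmp12 macrophage-like cells. Spp1 was at 3.85 in Apoe Prtn3 macrophage-like cells and at -2.03 in interferon-high cells. Fn1 was at 0.94 in cDC2-like cells and at -1.07 in mast cell-like cells, from 11 UMIs in each library. The mast cell-like value turned to 0.10 without doublet removal and 0.60 in thinned cells, and monocyte/macrophage markers in cDC2-like cells summed to 4295 CPM in E2 and 2197 CPM in placebo. Plaur was at 1.83 in mature DC-like cells (60 UMIs in E2, 3 in placebo) and at -1.56 in cDC1-like cells (9 and 27). As given above, few cells held most UMIs of the higher library for both Plaur values and for Hbegf in mature DC-like cells. The same held for both Spp1 values.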

How the results depend on the processing

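No paired analysis was possible because each group holds 1 library. As gated, log2 ratios in monocyte/macrophage-like cells were Vegfa 0.38, Hbegf -1.37, Thbs1 0.43, Spp1 0.01, Fn1 -0.26, Plau -0.33 and Plaur -0.25. Over these class values, the counts of member pairs past 1.5-fold and the pathway-list counts, 41 results moved and 69 did not. A class value moved when it left its counting interval, and a count when it changed by over 1.5 times. Of the class values alone, 6 moved and 1 stayed with states weighted alike. All 7 moved without the Arg1 Mmp12 state. With states weighted alike, Vegfa was 0.71, Hbegf -1.04, Thbs1 0.61, Spp1 0.93, Fn1 -0.17 and Plaur -0.070. Without the Arg1 Mmp12 state (chosen after seeing the data) they were 1.001, -0.78, 0.75, 2.08, -0.22 and -0.14, and Plau was -0.0068. Without the 1% of cells with most UMIs (chosen after seeing the data), Vegfa was 0.54, Thbs1 0.64 and Fn1 -0.30. Thinning gave Hbegf -1.19, Thbs1 0.47, Spp1 -0.60 and Fn1 -0.30. The mean of single cells gave Thbs1 0.48, Spp1 -0.58, Fn1 -0.32 and Plau -0.55. Median-ratio scaling gave Vegfa 0.47, Thbs1 0.53, Spp1 0.10, Fn1 -0.17 and Plaur -0.16. Clusters gave Thbs1 0.39, Spp1 -0.077 and Fn1 -0.29, and a stricter gate Vegfa 0.48, Thbs1 0.51 and Fn1 -0.31. A pseudocount of 1 CPM gave Hbegf -1.91, and list counts of 1 higher (VEGF family), 3 higher and 5 lower (matrix), and 1 higher and 2 lower (plasminogen).

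In single classes and states 481 values stayed, 144 moved and 10 reversed. With clusters in place of state gates (chosen after seeing the data), 18 of the state values moved and 14 stayed. Fn1 without doublet removal was 0.65 in T-like, -0.26 in neutrophil-like and 0.10 in mast cell-like cells, and thinned 0.60 in mast cell-like cells. In basophil-like cells Fn1 was 0.52 by the mean of single cells and 1.05 without the top 1% of cells. Plau thinned was 0.49 in neutrophil-like cells. Spp1 by the mean of single cells was -2.60 in NK-like and -0.58 in mature DC-like cells, and thinned -1.35 in mature DC-like cells. The causes were not tested. Values below about 20 UMIs are limited by depth.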
